A study of Mus musculus with 24 samples.

Results

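Liver mRNA of 10 genes that sense or carry out the handling of foreign and endogenous small molecules was followed over feeding and fasting in mice with and without hepatocyte p110α. The genes were the nuclear receptors Nr1i2, Nr1i3, Hnf4a, Nr5a2, Esrra, Thrb and Nr2f6, the aryl hydrocarbon receptor Ahr, and the enzymes Por and Alas1. They were chosen by name, as array probes outside controls that carry one of these gene names, with 1 probe per gene, that with the highest mean log2 median signal over all arrays. All 10 genes had such a probe, among 21488 genes tested and 37325 gene symbols on the array.

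The 24 arrays, 1 per liver, came from male mice 12 weeks old in 4 groups of 6. LWT_Fed and LWT_Fasted were p110α hep+/+ littermates, which carry floxed Pik3ca alleles and no Cre. LKO_Fed and LKO_Fasted were p110α hep-/- mice, in which Cre under the albumin promoter deletes part of Pik3ca, the gene of p110α, in hepatocytes. All mice thus carried floxed alleles, and LKO mice alone carried Cre. Fed mice had free access to food, and fasted mice went without it for 24 h, starting at ZT16, that is 16 h after lights on. All livers were collected at ZT16. The study asked with these arrays what hepatocyte p110α contributes to the response of the liver to feeding and fasting.

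Nuclear receptors are transcription factors that bind DNA at short motifs and alter transcription when a lipid, hormone, drug or bile acid fills their ligand pocket, and several act as dimers with RXR. In hepatocytes, PXR (Nr1i2) and CAR (Nr1i3) sense drugs and bile acids and switch on cytochrome P450 enzymes, conjugating enzymes and transporters, while HNF4α (Hnf4a) maintains the expression of these same receptors and of the hepatocyte programme. Microsomal P450 enzymes need haem, whose synthesis is limited in liver by ALAS1, and electrons, which are passed on from NADPH by POR.

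Because Por, Alas1, Nr1i2 and Nr1i3 were the genes that passed the test below and rose by more than 1.5-fold with fasting in one or both genotypes, the sequence just before their transcription start is shown for these 4, from the RefSeq promoter table of build GRCm38.p6. Each run holds the 250 bases before the start, 5′ to 3′ on the strand of the gene. Capitals mark matches, on either strand, to AGGTCA (nuclear receptor half-site), TGACG (cyclic AMP response element half-site), CACGTG (E-box), GTAAACA (forkhead), CAAAG (HNF4 core letters), CCAAT or TATAAA.
Por, chr5:135688895-135689144, plus strand: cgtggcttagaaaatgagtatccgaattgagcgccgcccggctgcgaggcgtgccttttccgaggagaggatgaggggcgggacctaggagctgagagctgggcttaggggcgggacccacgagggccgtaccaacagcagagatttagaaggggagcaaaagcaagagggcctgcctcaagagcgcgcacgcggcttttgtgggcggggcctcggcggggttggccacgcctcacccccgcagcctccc
Alas1, first start site, chr9:106247955-106248204, minus strand: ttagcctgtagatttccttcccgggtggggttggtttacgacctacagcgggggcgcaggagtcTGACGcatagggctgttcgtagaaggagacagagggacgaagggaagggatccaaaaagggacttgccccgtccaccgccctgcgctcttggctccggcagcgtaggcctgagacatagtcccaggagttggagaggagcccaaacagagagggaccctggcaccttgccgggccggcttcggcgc
Nr1i2, chr16:38294825-38295074, minus strand: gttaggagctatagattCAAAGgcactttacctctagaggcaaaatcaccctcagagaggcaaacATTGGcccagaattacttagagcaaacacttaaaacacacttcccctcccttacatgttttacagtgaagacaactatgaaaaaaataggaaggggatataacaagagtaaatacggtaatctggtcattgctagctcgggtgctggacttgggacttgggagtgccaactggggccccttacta
Nr1i3, chr1:171213720-171213969, plus strand: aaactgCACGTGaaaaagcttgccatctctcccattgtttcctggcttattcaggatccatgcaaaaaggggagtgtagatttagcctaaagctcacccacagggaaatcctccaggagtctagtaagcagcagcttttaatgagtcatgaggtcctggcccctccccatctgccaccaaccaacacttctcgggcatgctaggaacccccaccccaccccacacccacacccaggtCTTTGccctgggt

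The table held 13 such windows for 9 of the 10 genes, all but Ahr. AGGTCA was found in the windows of Nr5a2, beginning at -64 from its first start site, and of Thrb, at -184 from its first, whereas 14.0% of all 32851 windows of this length held it. None of the 4 windows printed above held it. Alas1 had TGACG at -186 from its first start site, a motif of 17.8% of all windows, and Nr1i3 had CACGTG at -244 from its start, a motif of 6.02%. Thrb too had a TGACG, at -56 from its first start site, and a CACGTG, at -193 from its second. CAAAG, present in 48.6% of all windows, was found in windows of Nr1i2, Nr1i3, Nr5a2 (both) and Thrb, and CCAAT, in 33.8%, in windows of Nr1i2, Hnf4a (both) and Nr5a2. GTAAACA, in 3.17% of all windows, was found in none of the 13, and TATAAA, in 12.4%, was found in windows of Nr5a2 and Thrb. Por had no match to any of the 7 motifs and 65.6% G and C, with a median of 52.4% over all windows. A match says only that the letters are there, and the absence of one says nothing about binding of a factor.

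Values below are log2 median spot signals after quantile normalization. Summed marker signals alone are the log2 of the sum of median spot signals before that step. The brightness of each array therefore enters them, with a median spot signal from 69 to 88.5 per array. Signals of different probes cannot be set against each other, so that only the same gene is compared between groups. A change is a log2 fold change from 1 limma model of all arrays with slide as a term and array weights. A gene passed the test at an adjusted p, over all probes kept, of at most 0.05. Weighting lets a fold change depart from the difference of the group means. The 3 slides were balanced, with 2 arrays per group on each. Per array, 54.74% to 63.01% of the spots exceeded background clearly, no spot was saturated, and all 10 probes were well above background on all 24 arrays. The 6 hepatocyte markers (Alb, Apoa1, Ttr, Apob, Serpina1a and Fgb) were well above background on every array, with a summed log2 signal between 20.7 and 20.87. The pancreas markers Cpa1, Pnlip and Prss2 were not well above background on any array, whereas 3 other markers of that list were well above it on all. Arrays of LKO_Fasted were less alike than those of the other groups, with r across genes down to 0.985 between replicate 4 and the pair of replicates 1 and 2, and results were also computed without that pair and without each array. The Pik3ca probe does not check the genotype labels. Its signal was 11.91 ± 0.21 (SD, n = 6) in LWT_Fed and 12.54 ± 0.26 in LKO_Fed, and 12.28 ± 0.14 in LWT_Fasted and 12.26 ± 0.19 in LKO_Fasted. It was higher in fed LKO livers (log2 fold change 0.58, SE 0.113, limma adjusted p = 0.00146), and whether it lies in the deleted part was not analysed here. Directions between genotypes therefore rest on the labels. Probe positions are given in mm9, and which exon or UTR a probe reads was not analysed here.

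In LWT livers, 6 of the 10 genes rose with fasting, Por, Nr1i2, Alas1, Nr1i3, Hnf4a and Esrra, and 1 fell, Nr2f6. Of all genes tested, 19.9% were higher and 21.7% lower. With a fold above 1.5 asked as well, 4 of the 10 passed, against 10% of all genes. In LKO livers the same 6 genes rose, and Thrb, Nr2f6 and Ahr fell, where 19.7% of all genes were higher and 21.8% lower. Here again 4 of the 10 also exceeded 1.5-fold, Por, Alas1, Nr1i2 and Ahr, against 12.8% of all genes. The median log2 fold change of the 10 was 0.45 in LWT and 0.29 in LKO, and that of all genes tested was -0.007 and -0.021. Summed markers of periportal hepatocytes (7 genes, all well above background on every array) moved with fasting too, from 18.93 to 19.22 in LWT_Fed and 19.27 to 19.51 in LWT_Fasted, and from 18.62 to 19.21 in LKO_Fed and 19.08 to 19.8 in LKO_Fasted. Its members went both ways: Pck1 rose by 1.59 in LWT and 0.79 in LKO and Sds by 1.45 in LWT, while Cyp2f2 fell by 0.50 and 0.67 and Hal by 0.89 in LKO, where Sds was at 0.39 and did not pass, as Hal at 0.26 in LWT did not, and Gls2, Ass1 and Cps1 did not pass in either. Those of pericentral hepatocytes (9 genes) ran from 18.64 to 19.11 and 19.01 to 19.19 in LWT and from 18.79 to 19 and 18.89 to 19.13 in LKO. In LWT 2 of the 9 rose and 3 fell. Oat was at 0.62 in LWT and 0.81 in LKO, and Lgr5 at -0.73 and -0.94. Stellate cell markers (6 genes, all well above background on every array) ran from 14.45 to 15.12 and 14.99 to 15.36 in LWT and from 14.49 to 14.87 and 14.77 to 15.43 in LKO, overlapping in both. Here too members went both ways. In LWT 2 of the 6 rose, Dcn (0.25) and Hgf (0.32), and 1 fell, Lrat (-0.90). In LKO 1 rose, Dcn (0.25), and 1 fell, Lrat (-0.96). The part of these lists in the changes with fasting was not tested.

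Fewer of these genes passed between genotypes. In fed mice 1 of the 10 passed, Por, which was higher in LKO, where 8.79% of all genes were higher, 7.59% lower and 3.82% past the fold of 1.5 too. In fasted mice 1 of the 10 passed, Hnf4a, which was lower in LKO, where 10% of all genes were higher, 10.6% lower and 4.06% past the fold of 1.5 too. For the interaction, in which the change with fasting of LWT livers is subtracted from that of LKO livers, again 1 of the 10 passed, Por, with a smaller rise in LKO. Of all genes tested, 4.1% had a higher and 3.86% a lower interaction, and 3.09% also exceeded 1.5-fold. All 3 calls had a fold under 1.5. In both genotype comparisons, 1 of 10 is close to the share of all genes called in that direction.

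**Figure D1:**
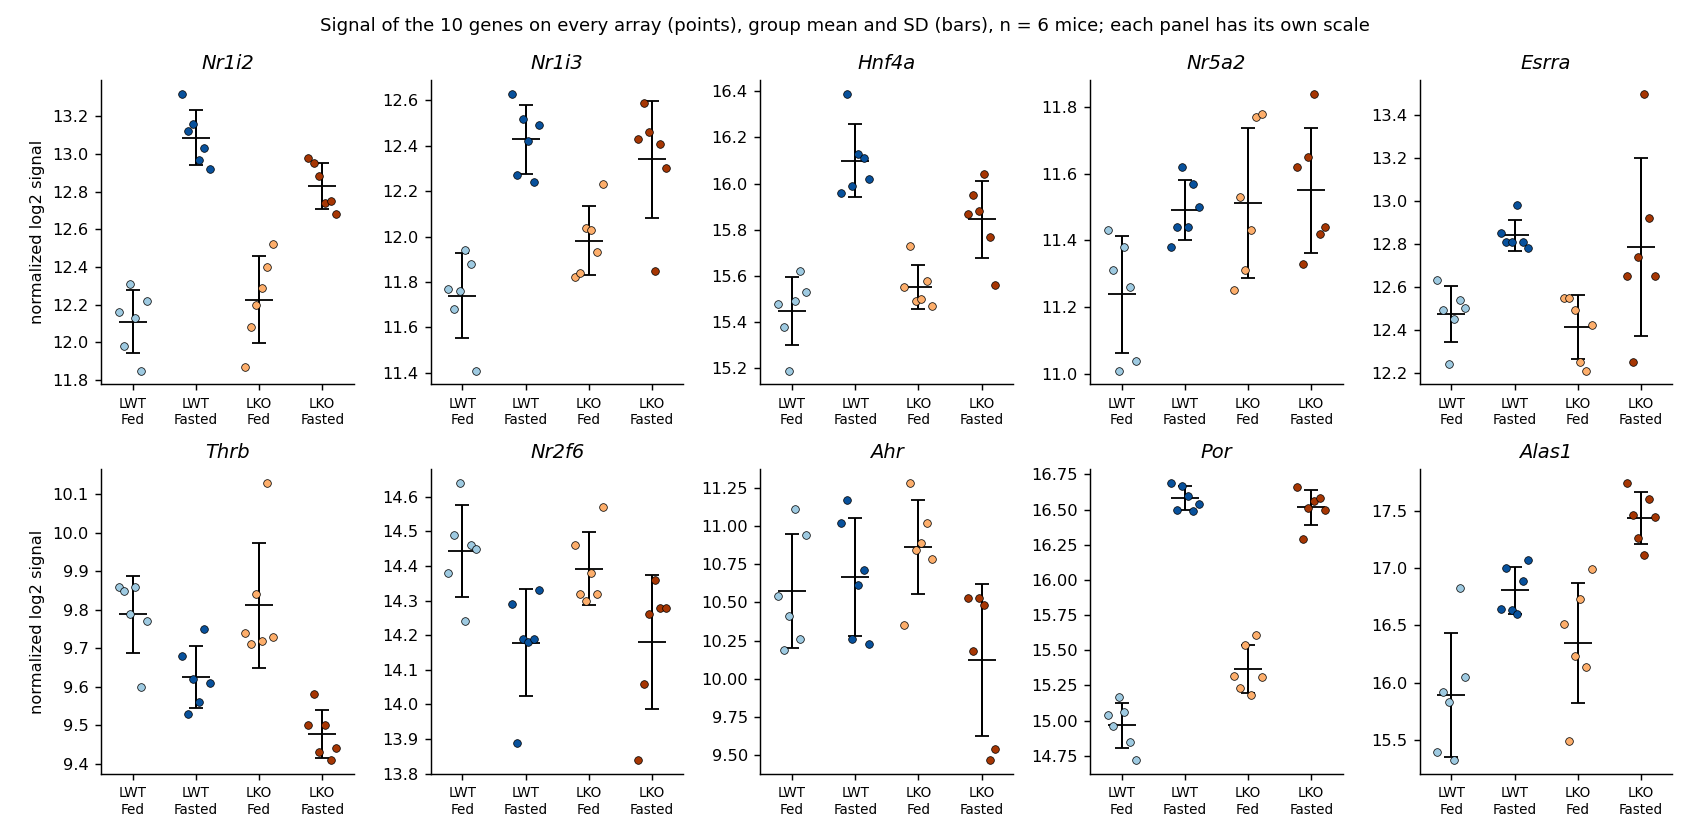
Normalized log2 signal (y axis, a scale per gene) of the 10 genes on each array (points) by group, with the mean and SD of 6 mice (bars). Por and Nr1i2 separate all fasted from all fed arrays in both genotypes, while Ahr spreads from 9.47 to 10.53 within LKO_Fasted.

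Por, the flavoprotein that passes electrons from NADPH to every microsomal P450, had the largest fitted change with fasting of the 10 in LWT. Its probe lies at chr5:136211116-136211175 on the plus strand. In LWT_Fed the lowest, median and highest signals were 14.72, 15 and 15.17, and in LWT_Fasted 16.49, 16.57 and 16.69. In LKO_Fed they were 15.18, 15.32 and 15.61, and in LKO_Fasted 16.29, 16.53 and 16.66. Every fasted array was thus above every fed array, and every LKO_Fed array was above every LWT_Fed array, while the fasted groups overlapped. The rise with fasting was 3.13-fold in LWT (log2 fold change 1.65, SE 0.0741, limma adjusted p = 6.28e-13) and 2.21-fold in LKO (1.14, SE 0.0819, limma adjusted p = 3.62e-10). Only 0.926% of all genes tested changed more in LWT, either way. The order of the group means was LWT_Fed, LKO_Fed, LKO_Fasted and LWT_Fasted, of which the last 2 did not differ beyond their spread.

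Fed LKO livers had 1.34-fold more Por signal than fed LWT livers (log2 fold change 0.42, SE 0.0758, limma adjusted p = 0.000708), with LKO higher on all 3 slides, by 0.26 to 0.47. In fasted livers the difference was -0.08 (95% interval -0.25 to 0.09, limma adjusted p = 0.532). The interaction was -0.50 (SE 0.11, limma adjusted p = 0.0078), and it ran from -0.55 to -0.45 over 34 alternative settings, all past the threshold. Summed cholangiocyte markers (5 genes, 3 of them well above background on all arrays) also moved with genotype, from 10.85 to 11.53 on LWT arrays and 9.07 to 10.72 on LKO arrays, without overlap. Spp1 was at -1.5 in fed and -2.1 in fasted livers and Krt19 at -0.57 in fed livers, while Sox9 and Krt7 did not pass in either. Epcam was well above background on 2 LKO_Fed and 1 LKO_Fasted arrays. Adipose markers (6 genes, 2 well above background on all arrays) ran from 11.01 to 11.55 in LWT_Fed and 10.27 to 10.78 in LKO_Fed, and overlapped in the fasted groups, where LKO_Fasted, at 10.96 to 11.87, lay above LKO_Fed. The only call between fed groups was Cfd, well above background on 3 LKO_Fed arrays. In fasted livers Fabp4 was at 0.62 and Cfd at -3 in LKO against LWT. With fasting in LKO, Fabp4 was at 0.83 and Lep at -0.28. Pancreas markers (7 genes, 3 well above background on all arrays) ran from 13.57 to 13.93 in LWT_Fasted and 12.81 to 13.35 in LKO_Fasted, and female-biased liver genes (8 genes) from 18.23 to 18.62 and 17.65 to 18.14, both with overlap in the fed groups. The part of these lists in the differences of Por and the other members was not tested. Hepatocyte markers covered nearly the same range in both fed groups, 20.7 to 20.81 in LWT and 20.72 to 20.82 in LKO. In bulk liver, fewer cells of a type and less RNA per cell cannot be told apart.

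Alas1 encodes the mitochondrial enzyme that condenses glycine and succinyl-CoA in the first and rate-limiting step of hepatic haem synthesis. Its probe lies at chr9:106136284-106136343 on the minus strand. The fed groups were wide, from 15.33 over a median of 15.87 to 16.83 in LWT_Fed and from 15.49 over 16.37 to 16.99 in LKO_Fed. The fasted groups were narrower, from 16.6 over 16.77 to 17.07 in LWT_Fasted and from 17.11 over 17.45 to 17.74 in LKO_Fasted. All LKO_Fasted arrays were therefore above the arrays of the other 3 groups, whereas LWT_Fed replicate 5, at 16.83, lay within LWT_Fasted. Fasting raised Alas1 1.84-fold in LWT (log2 fold change 0.88, SE 0.228, limma adjusted p = 0.0036) and 2.17-fold in LKO (1.12, SE 0.252, limma adjusted p = 0.00108). The other 2 Alas1 probes gave rises of 1.08 in LWT, both of them, and of 1.43 and 1.36 in LKO, all past the threshold.

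Between fasted groups Alas1 differed by 0.70 (SE 0.247, 95% interval 0.18 to 1.21), which narrowly missed the threshold (limma adjusted p = 0.0516), although LKO was higher on every slide and no array overlapped. This value was borderline under other settings too, with an adjusted p from 0.00599 to 0.108 and a pass in 13 of 35. Those 13 included the fits without LKO_Fed replicates 1, 2 or 4, LWT_Fed replicates 1, 4 or 5, or LKO_Fasted replicate 4, each left out alone, where the difference was 0.71, 0.71, 0.69, 0.68, 0.70, 0.67 and 0.75, in that order. The other 2 Alas1 probes differed by 0.84 (limma adjusted p = 0.0547) and 0.81 (limma adjusted p = 0.0783) between fasted groups, neither past the threshold. In fed mice the difference was 0.45 (limma adjusted p = 0.202). It ran from 0.28 to 0.69 over 35 alternative settings, with a limma adjusted p up to 0.456, and passed in 2. These were the fit without LKO_Fed replicate 2 (0.64, limma adjusted p = 0.0303) and that with replicate number as a block (0.56, limma adjusted p = 0.0488). The interaction was 0.24 (95% interval -0.46 to 0.95, limma adjusted p = 0.722). It ran from -0.02 to 0.42 over 34 alternative settings, none past the threshold.

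Nr1i2 encodes PXR, a receptor for drugs, steroids and bile acids. It was read by a single probe, at chr16:38248745-38248804 on the minus strand. LWT_Fed arrays ran from 11.85 over a median of 12.15 to 12.31, and LWT_Fasted arrays from 12.92 over 13.07 to 13.32. LKO_Fed arrays ran from 11.87 over 12.25 to 12.52, and LKO_Fasted arrays from 12.68 over 12.81 to 12.98. Fasted and fed arrays did not overlap in either genotype. The rise was 1.98-fold in LWT (log2 fold change 0.98, SE 0.0993, limma adjusted p = 7.2e-08) and 1.54-fold in LKO (0.63, SE 0.11, limma adjusted p = 8.62e-05). The interaction of -0.36 (95% interval -0.66 to -0.05) did not pass after adjustment (limma adjusted p = 0.147), except without LKO_Fed replicate 1, the lowest array of its group (-0.48, limma adjusted p = 0.0295).

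Nr1i3 encodes CAR, which in hepatocytes moves to the nucleus when phenobarbital-like compounds act. Its probe lies at chr1:173147776-173147835 on the plus strand. Signals ran from 11.41 over a median of 11.76 to 11.94 in LWT_Fed and from 12.24 over 12.46 to 12.63 in LWT_Fasted, without overlap. They ran from 11.82 over 11.98 to 12.23 in LKO_Fed and from 11.85 over 12.42 to 12.59 in LKO_Fasted, where replicate 4, at 11.85, lay among the fed arrays. Nr1i3 rose 1.61-fold in LWT (log2 fold change 0.68, SE 0.0988, limma adjusted p = 8.91e-06) and 1.33-fold in LKO (0.41, SE 0.109, limma adjusted p = 0.00414). A second probe, of transcript NM_001243062, gave the same 0.68 in LWT, but 0.23 in LKO, which did not pass (limma adjusted p = 0.128). The interaction was -0.27 (95% interval -0.58 to 0.03) on the first probe and -0.45 (limma adjusted p = 0.0902) on the second. Fed LKO livers differed from fed LWT livers by 0.23 (limma adjusted p = 0.136), and by 0.30 without LWT_Fed replicate 4, which passed (limma adjusted p = 0.0484).

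Hnf4a encodes a receptor that is active in hepatocytes without a hormone ligand and holds up a large part of the liver's own transcription. Its probe lies at chr2:163398548-163398607 on the plus strand. LWT_Fed ran from 15.19 over a median of 15.49 to 15.62 and LWT_Fasted from 15.96 over 16.07 to 16.39, without overlap. LKO_Fed ran from 15.47 over 15.52 to 15.73 and LKO_Fasted from 15.56 over 15.88 to 16.04, with replicate 6 of LKO_Fasted, at 15.56, within the fed range. Hnf4a rose 1.48-fold in LWT (log2 fold change 0.57, SE 0.0685, limma adjusted p = 8.14e-07) and 1.22-fold in LKO (0.28, SE 0.0757, limma adjusted p = 0.00462). A second, dimmer probe rose by 0.42 in LWT (limma adjusted p = 0.00237) and by 0.19 in LKO, which did not pass (limma adjusted p = 0.192).

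Fasted LKO livers had less Hnf4a than fasted LWT livers (log2 fold change -0.24, SE 0.0744, limma adjusted p = 0.0264), lower on all 3 slides but with overlapping arrays. This call rested on few arrays. It was lost without LWT_Fasted replicate 4 (-0.21, limma adjusted p = 0.0625) or 5 (-0.22, limma adjusted p = 0.0625) and without LKO_Fasted replicate 5 (-0.22, limma adjusted p = 0.0572) or 6 (-0.17, limma adjusted p = 0.0944), as it was with the second probe (-0.16, limma adjusted p = 0.346), with no filter on dim probes (-0.24, limma adjusted p = 0.0545) and in a fit of the fasted groups alone (-0.25, limma adjusted p = 0.0971). The interaction was -0.29 (95% interval -0.50 to -0.08, limma adjusted p = 0.0898), which passed with 75th percentile scaling (-0.33, limma adjusted p = 0.0355) and in the fit with replicate number as a block (-0.34, limma adjusted p = 0.0267).

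**Figure D2:**
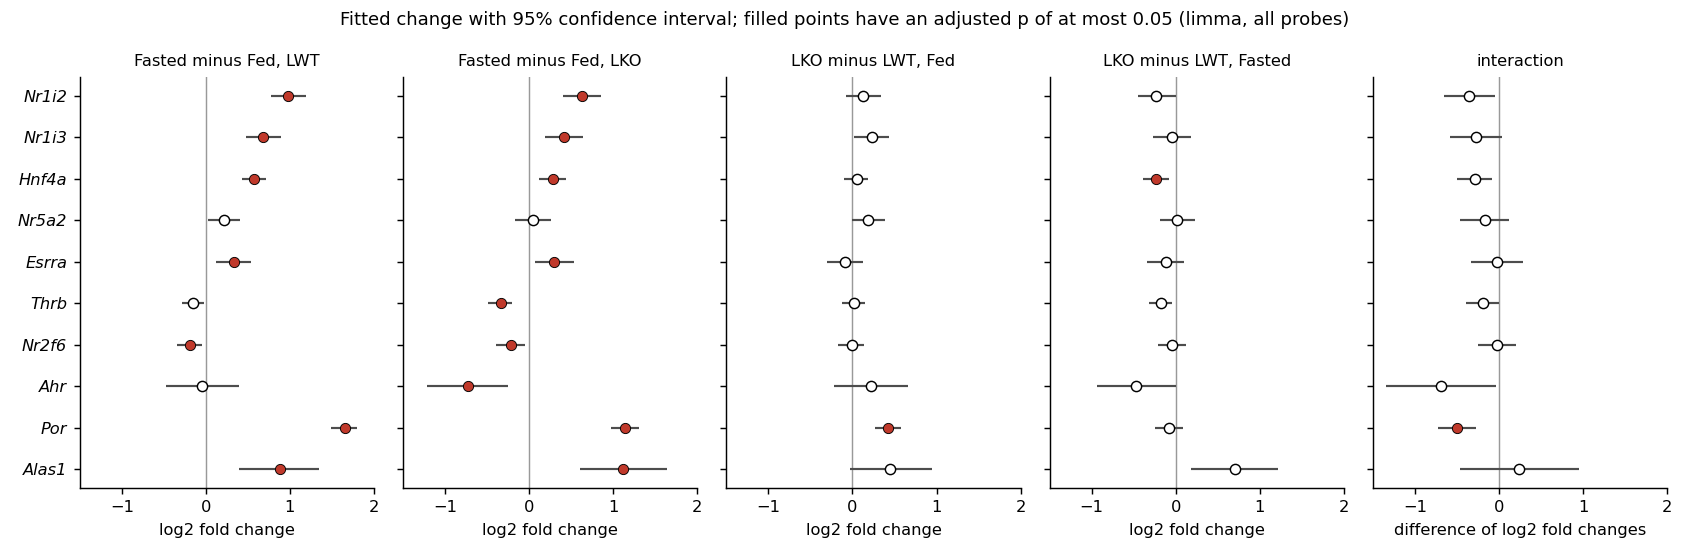
Fitted log2 fold change (x axis) of each gene in the 4 comparisons and the interaction, with its 95% confidence interval; filled points passed an adjusted p of 0.05. Fasting moved 7 genes in LWT and 9 in LKO, while each genotype comparison and the interaction holds 1 filled point.

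Esrra and Thrb encode receptors tied to energy use. ERRα (Esrra) works with the PGC-1 coactivators on genes of mitochondrial oxidation, and TRβ (Thrb) is the main thyroid hormone receptor of hepatocytes. Esrra, at chr19:6985503-6985562 on the minus strand, ran from 12.24 over a median of 12.5 to 12.63 in LWT_Fed and from 12.78 over 12.81 to 12.98 in LWT_Fasted, without overlap. It ran from 12.21 over 12.45 to 12.55 in LKO_Fed and from 12.25 over 12.7 to 13.5 in LKO_Fasted, where replicate 2 was the lowest of its group and replicate 4 the highest of the 24 arrays. The rise was 1.26-fold in LWT (log2 fold change 0.33, SE 0.0994, limma adjusted p = 0.0103) and 1.23-fold in LKO (0.30, SE 0.11, limma adjusted p = 0.0324). The LKO call was lost without LKO_Fasted replicate 3 (0.30), 5 (0.24) or 6 (0.29) and without LKO_Fed replicate 4 (0.26) or 5 (0.26), with adjusted p from 0.0531 to 0.113. It was lost also with 75th percentile scaling (0.25), with the processed signal (0.23), with no filter on dim probes (0.31) and in a fit of the LKO groups alone (0.29), with adjusted p from 0.0616 to 0.171. A second probe, of transcript AK046588, rose more, by 0.42 in LWT (limma adjusted p = 4.8e-05) and 0.63 in LKO (limma adjusted p = 9.48e-07).

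Thrb, at chr14:18868800-18868859 on the plus strand, moved the other way. Its signal ran from 9.6 over a median of 9.82 to 9.86 in LWT_Fed and from 9.53 over 9.61 to 9.75 in LWT_Fasted. It ran from 9.71 over 9.73 to 10.13 in LKO_Fed and from 9.41 over 9.47 to 9.58 in LKO_Fasted, without overlap. In LKO it fell with fasting (log2 fold change -0.34, SE 0.0692, limma adjusted p = 0.000393). The change in LWT was -0.15 (limma adjusted p = 0.0632), and it passed without LWT_Fed replicate 5 (-0.19), LKO_Fed replicate 5 (-0.15) or LWT_Fasted replicate 5 (-0.17), with adjusted p of 0.029, 0.0274 and 0.0382. It passed also with the authors' processed values (-0.15), with no slide term (-0.16), with a filter on all arrays (-0.15) and in the fit with replicate number as a block (-0.16), with adjusted p from 0.0405 to 0.0497. The interaction was -0.19 (95% interval -0.39 to 0.00, limma adjusted p = 0.219), so the fall was not shown to differ between genotypes. Fasted LKO and LWT livers differed by -0.18 (limma adjusted p = 0.0701), and this passed without LKO_Fasted replicate 2 (-0.22, limma adjusted p = 0.0302) or LKO_Fed replicate 5 (-0.17, limma adjusted p = 0.0422). A second Thrb probe changed by -0.20 in LKO, which did not pass (limma adjusted p = 0.0694).

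Nr2f6 encodes EAR2, an orphan receptor that mostly represses transcription, and its probe lies at chr8:73898098-73898157 on the minus strand. Its signals ran from 14.24 over a median of 14.45 to 14.64 in LWT_Fed, 13.89 over 14.19 to 14.33 in LWT_Fasted, 14.3 over 14.35 to 14.57 in LKO_Fed and 13.84 over 14.27 to 14.36 in LKO_Fasted. Fed and fasted arrays overlapped in both genotypes. The fall was -0.19 in LWT (SE 0.0726, limma adjusted p = 0.04) and -0.22 in LKO (SE 0.0803, limma adjusted p = 0.0324). Single arrays decided both calls. The LWT call was lost with no filter on dim probes (-0.21, limma adjusted p = 0.0654), and without LWT_Fed replicate 2 (-0.17), 3 (-0.18), 5 (-0.19) or 6 (-0.16) or without LWT_Fasted replicate 2 (-0.16), 3 (-0.18) or 6 (-0.22), with adjusted p from 0.0525 to 0.095. The LKO call was lost in a fit of the LKO groups alone (-0.23, limma adjusted p = 0.0783), and without LKO_Fed replicate 1 (-0.21), 4 (-0.21) or 6 (-0.20) or LKO_Fasted replicate 1 (-0.15) or 2 (-0.17), with adjusted p from 0.0585 to 0.133, and was -0.11 without both of the latter (limma adjusted p = 0.278). A second, dimmer probe, of transcript ENSMUST00000156270, changed by -0.06 in LWT and by 0.18 in LKO, the opposite direction, neither past the threshold.

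Nr5a2 encodes LRH-1, which binds phospholipids and helps drive bile acid synthesis and reverse cholesterol transport. It was read by a single probe, at chr1:138740903-138740962 on the minus strand. Its signals ran from 11.01 over a median of 11.29 to 11.43 in LWT_Fed, 11.38 over 11.47 to 11.62 in LWT_Fasted, 11.25 over 11.48 to 11.78 in LKO_Fed and 11.33 over 11.53 to 11.84 in LKO_Fasted. Only LWT_Fed lay somewhat below the rest, and every pair of groups compared overlapped. The change with fasting was 0.22 in LWT (95% interval 0.02 to 0.41, limma adjusted p = 0.0661) and 0.05 in LKO (95% interval -0.17 to 0.26, limma adjusted p = 0.749). The LWT change passed without LWT_Fasted replicate 1 (0.25), LKO_Fed replicate 1 (0.23) or LWT_Fed replicate 1 (0.27) or 4 (0.27), with adjusted p from 0.0318 to 0.0433. It passed also with the authors' processed values (0.22), with no slide term (0.22), with a filter on all arrays (0.22) and in a fit of the LWT groups alone (0.24), with adjusted p from 0.0247 to 0.0482. Genotype differences were 0.19 in fed livers (limma adjusted p = 0.193) and 0.02 in fasted livers (limma adjusted p = 0.925).

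Ahr encodes a ligand-activated factor of another family, the bHLH-PAS proteins, which binds dioxins and plant and bacterial indoles and drives Cyp1 genes. Its probe lies at chr12:36182724-36182783 on the minus strand. It had wide groups, from 10.19 over a median of 10.47 to 11.11 in LWT_Fed, 10.23 over 10.66 to 11.17 in LWT_Fasted, 10.35 over 10.87 to 11.28 in LKO_Fed and 9.47 over 10.33 to 10.53 in LKO_Fasted. Replicates 5 and 6 made up the low end of LKO_Fasted, with 9.47 and 9.54, and the next array stood at 10.18. In LKO, Ahr fell with fasting by 0.73 on the log2 scale (SE 0.231, limma adjusted p = 0.0146), and on each slide, by 0.69 to 0.83. The call was lost without replicate 5 (-0.56, limma adjusted p = 0.0581) or replicate 6 (-0.53, limma adjusted p = 0.0615) of LKO_Fasted. In LWT the change was -0.04 (95% interval -0.47 to 0.39, limma adjusted p = 0.90). The difference between genotypes was not shown, with an interaction of -0.69 (95% interval -1.34 to -0.04, limma adjusted p = 0.188). Summed markers of Kupffer cells stood at 14.49 and 16.72 on those 2 arrays and at 14.35 to 15.32 on the other 4 of the group, and their part in the result was not tested. The second Ahr probe was well above background on 15 of the 24 arrays and was not tested.

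The 10 genes did not all vary together. Over the 24 arrays, Pearson's r was 0.913 between Nr1i2 and Por, 0.833 between Nr1i2 and Nr1i3, 0.837 between Nr1i3 and Por and 0.787 between Nr1i2 and Hnf4a. Alas1 followed Por with r of 0.713 and ran against Thrb with r of -0.762, and Nr2f6 ran against Hnf4a with r of -0.727. For Ahr, r was 0.509 with Thrb, -0.512 with Alas1, -0.294 with Por, -0.249 with Nr1i3 and -0.189 with Esrra, and from -0.0906 to 0.0972 with Nr1i2, Hnf4a, Nr5a2 and Nr2f6. These values are descriptions, since all points share the feeding contrast and each array gives both genes. Among all genes tested, the closest to Por were Pip5k1a (r of 0.97), Lbp (0.968) and Pla2g12a (0.967). The closest to Nr1i2 were Cyp4f15 (0.949), AK079676 (0.945) and Fbxo31 (0.942), those to Hnf4a were Dcaf10 (0.93), Riok3 (0.92) and Itch (0.915), and those to Nr1i3 were Abcc3 (0.879), Retsat (0.874) and Vps13d (0.873). Abcc3 is itself a transporter gene listed among CAR targets. It rose by 0.78 with fasting in LWT and was at 0.30 in LKO, which did not pass. For Esrra they were Rdh13 (0.907), 1810013D15Rik (0.899) and Ndrg3 (0.871), and for Alas1 ENSMUST00000029552 (0.91), Kctd15 (0.877) and Gm15694 (0.876). For Nr2f6 they included Mbd3 (0.875) and ENSMUST00000120254 (0.872), and for Thrb they were, beside a probe of an unnamed transcript (0.874), Mbl2 (0.863) and Sult1c2 (0.856). Nr5a2 and Ahr had the weakest neighbours, Mcc (0.794), Ccdc141 (0.765) and Fam13a (0.758) for Nr5a2 and Mrps21 (0.81), AK054225 (0.785) and Cited2 (0.785) for Ahr.

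Set in their family, the 7 nuclear receptors were among 42 tested of 49 on the array. With fasting, 4 of the 7 rose and 1 fell in LWT, where 7 of the other 35 rose and 8 fell. In LKO 4 of the 7 rose and 2 fell, where 10 of the other 35 rose and 12 fell. Among the others, Rarb, a retinoic acid receptor, fell by 1.30 on the log2 scale in LWT and fell by 1.1 in LKO, and Nr3c2, the mineralocorticoid receptor, fell by 1.06 in LWT and fell by 1.39 in LKO. Nr0b2, which encodes SHP, a corepressor that silences LRH-1 and HNF4α, fell by 1.32 in LWT and fell by 1.54 in LKO, and Esr1, the oestrogen receptor α, fell by 0.91 in LWT and fell by 1.61 in LKO, with an interaction that did not pass (-0.70, limma adjusted p = 0.0832). In fed livers 2 of the 42 were higher and 2 lower in LKO, among them Pparg (-1.02, limma adjusted p = 0.0107). In fasted livers 3 were higher and 6 lower, with Nr4a1 (1.36, limma adjusted p = 0.000687) and Nr4a2 (0.79, limma adjusted p = 4.24e-05) highest in LKO. For the interaction, Nr4a2 was at 0.91 and Nr6a1 at -0.60, both past the threshold.

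**Figure D3:**
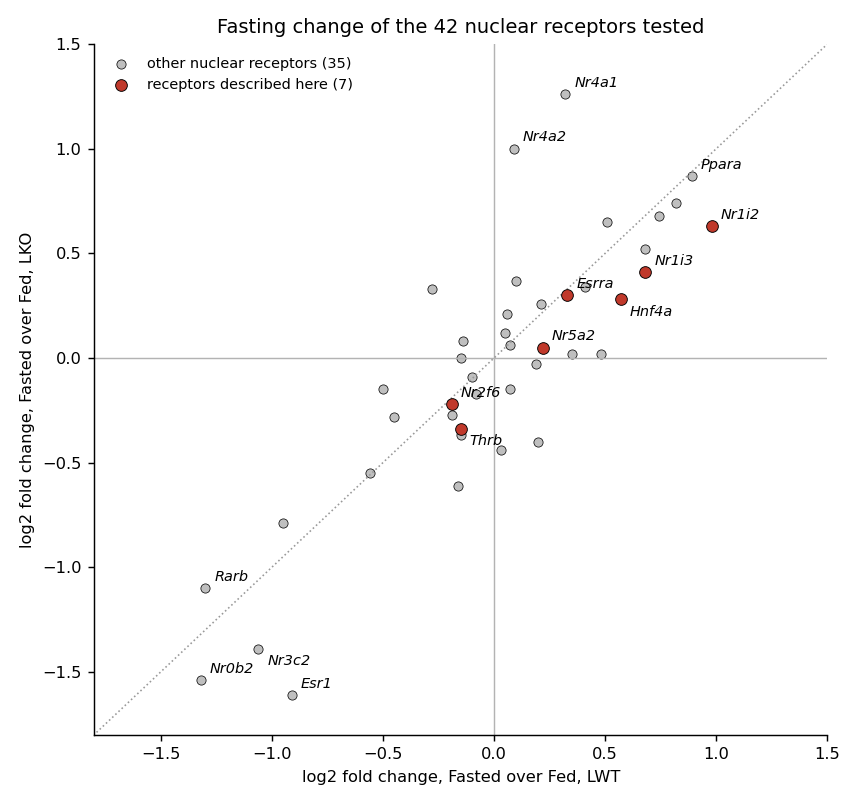
Log2 fold change with fasting in LWT (x axis) and LKO (y axis) of the 42 nuclear receptors tested; red points are the 7 described here and the dotted line marks equal change. Nr1i2 (0.98 in LWT, 0.63 in LKO) has the largest rise in LWT of the 42, next to Ppara (0.89). In LKO, Nr4a1 (1.26), Nr4a2 (1) and Ppara (0.87) are among the receptors that rose more than Nr1i2. Esr1, Nr0b2, Nr3c2 and Rarb have the largest falls in LKO.

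Other genes of these pathways are given by lists, some of which share genes. The counts are to be read beside the shares of all genes tested, which were 19.9% higher and 21.7% lower with fasting in LWT, 19.7% and 21.8% in LKO, 8.79% and 7.59% for LKO against LWT in fed mice and 10% and 10.6% in fasted mice. Of 15 partners and coregulators of the receptors, 9 were up and 1 down after fasting in LWT, with a median log2 fold change of 0.27. In LKO 6 were up and 3 down, with a median of 0.18. The PGC-1 coactivators Ppargc1a and Ppargc1b rose by 0.99 and 1.11 in LWT, and in LKO Ppargc1b rose by 0.81 and Ppargc1a was at 0.56, which did not pass. Nrip1, a corepressor, rose by 0.39 in LWT and 0.65 in LKO. In fed livers 4 of the 15 were higher in LKO, among them Crebbp (0.62).

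Of 20 target genes of CAR and PXR tested, 6 rose and 4 fell with fasting in LWT, with a median of -0.05, and 2 rose and 8 fell in LKO, with a median of -0.32. Gadd45b, a growth arrest gene, rose by 1.96 in LWT and 2.33 in LKO, while Cyp2c55, a P450, fell by 1.46 in LWT and fell by 1.52 in LKO, and Cyp2c37 fell by 0.31 in LWT and fell by 0.97 in LKO. Slco1a4, an organic anion uptake transporter, rose by 0.97 in LWT (limma adjusted p = 0.000156) and fell by 0.56 in LKO, and its interaction of -1.53 passed (limma adjusted p = 0.0014). Interactions of -0.66 for Cyp2c37 and -0.60 for Cyp2c50 passed too. With fasting, Cyp2b10 was at 0.19 (SE 0.622) in LWT and -0.23 (SE 0.688) in LKO. Cyp3a11 was at 0.34 and 0.04, and neither gene passed in either genotype. In fasted livers 9 of the 20 were lower and 1 higher in LKO, with Cyp2c55 at -1.03, Aldh1a1 at -0.87 and Gadd45b at 0.93. In fed livers 4 were higher and 3 lower, with Slco1a4 at 0.82, Cyp2c55 at -0.97 and Aldh1a1 at -0.70.

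For AHR, 4 partners and 7 targets were tested. Among targets, Cyp1a2, the main hepatic P450 of caffeine metabolism, fell by 0.44 with fasting in LWT and fell by 1.5 in LKO, was lower in fasted LKO than in fasted LWT livers by -0.79, and had an interaction of -1.07 (limma adjusted p = 0.00369). Ugt1a6a, a glucuronosyltransferase, fell by 0.50 in LWT and fell by 0.42 in LKO. Tiparp, Nqo1 and Aldh3a1 did not pass for fasting in either genotype. The other two targets, Cyp1a1 and Cyp1b1, entered the test only through the groups where they were high, so no count of targets is given and their calls are not read. Cyp1a1 was well above background on 5 LWT_Fed, 3 LWT_Fasted, 4 LKO_Fed and 0 LKO_Fasted arrays, and Cyp1b1 on 1, 6, 3 and 6. Among partners, 1 fell in LWT, and 3 were higher in fasted LKO than in fasted LWT livers, by less than 1.5-fold.

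The network of liver transcription factors around HNF4α (11 tested) had 2 genes higher after fasting in LWT and 3 in LKO. Prox1, a corepressor of HNF4α and LRH-1, rose by 1.18 in LWT and 1.27 in LKO, and Cebpb by 0.75 and 0.67. Of 14 HNF4α target genes, 4 rose and 2 fell in LWT, and 4 rose and 5 fell in LKO, with medians of 0.02 and -0.04. Cyp8b1, of bile acid synthesis, rose by 0.90 in LWT and 1.13 in LKO, and Mttp, which loads lipoproteins with lipid, rose by 0.23 and 0.74. F7, clotting factor VII, fell by 0.69 in LKO and was at -0.08 in LWT, which did not pass. The interaction of F7 was -0.61 (limma adjusted p = 0.00267).

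Targets of LRH-1 (8 tested) split, with 3 up and 3 down in LWT and 2 up and 4 down in LKO. Cyp7a1, the rate-limiting enzyme of bile acid synthesis, fell by 1.41 in LWT and fell by 2.12 in LKO. The sterol exporters Abcg5 and Abcg8 had interactions of -0.97 and -0.82, both past the threshold. In fasted livers Abcg5 was at -0.85 in LKO against LWT.

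Of 9 genes of thyroid hormone handling and action, 2 rose and 3 fell in LWT, and 3 rose and 4 fell in LKO. Thrsp, a lipogenic gene that thyroid hormone induces, fell by 4.24 in LWT and fell by 6.29 in LKO, and Me1, malic enzyme, fell by 1.64 in LWT and was at -0.32 in LKO, which did not pass. Klf9 rose by 1.17 in LWT and 0.83 in LKO. In fed livers Me1 was at -1.61 and Thrsp at -1.07 in LKO against LWT. Hr, 1 of the 9, was well above background on 4 of 6 LKO_Fed arrays and entered the test only through other groups. Its changes against LKO_Fed are therefore not read, and no count is given for fed livers. Hr stays among the 9 in the counts with fasting. In fasted livers Dio1, the deiodinase that activates thyroxine, was at -1.23 and Thrsp at -3.12. Interactions of -2.05 for Thrsp and 1.31 for Me1 passed. Among 13 partners and targets of the oestrogen-related receptors, 5 rose and 1 fell in LWT and 5 rose in LKO. Pdk4, which shuts off pyruvate dehydrogenase, rose by 2.63 and 4.32, with an interaction of 1.70 (limma adjusted p = 0.0423), and Acadm, of fatty acid oxidation, rose by 1.01 and 1.21.

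Of 15 genes of haem synthesis and breakdown, 3 rose and 5 fell with fasting in LWT, and 2 rose and 7 fell in LKO, with medians of -0.12 and -0.03. Beside Alas1, Cpox, coproporphyrinogen oxidase, rose by 0.62 and 0.68, while Ppox, the enzyme that follows it, fell by 0.71 in LWT and fell by 0.57 in LKO. Alas2, the erythroid form, was lower in LKO, at -0.80 in fed and -0.83 in fasted livers, and it also counts among the erythroid markers. The summed signal of that list ran from 16.33 to 18.01 on LWT arrays and 16.36 to 18.34 on LKO arrays.

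Of 8 genes in a list built around electron transfer to P450 enzymes, Por included, 1 rose and 4 fell in LWT, and 2 rose and 5 fell in LKO, with medians of -0.23 and -0.42. The 1 riser in LWT was Por itself. Cyb5b, a cytochrome b5, fell by 1.3 in LWT and fell by 1.15 in LKO. The changes of Cyb5r3, its reductase, were -0.94 and -1.15. In fasted livers Cyb5r3 was at -0.62 in LKO against LWT.

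**Figure D4:**
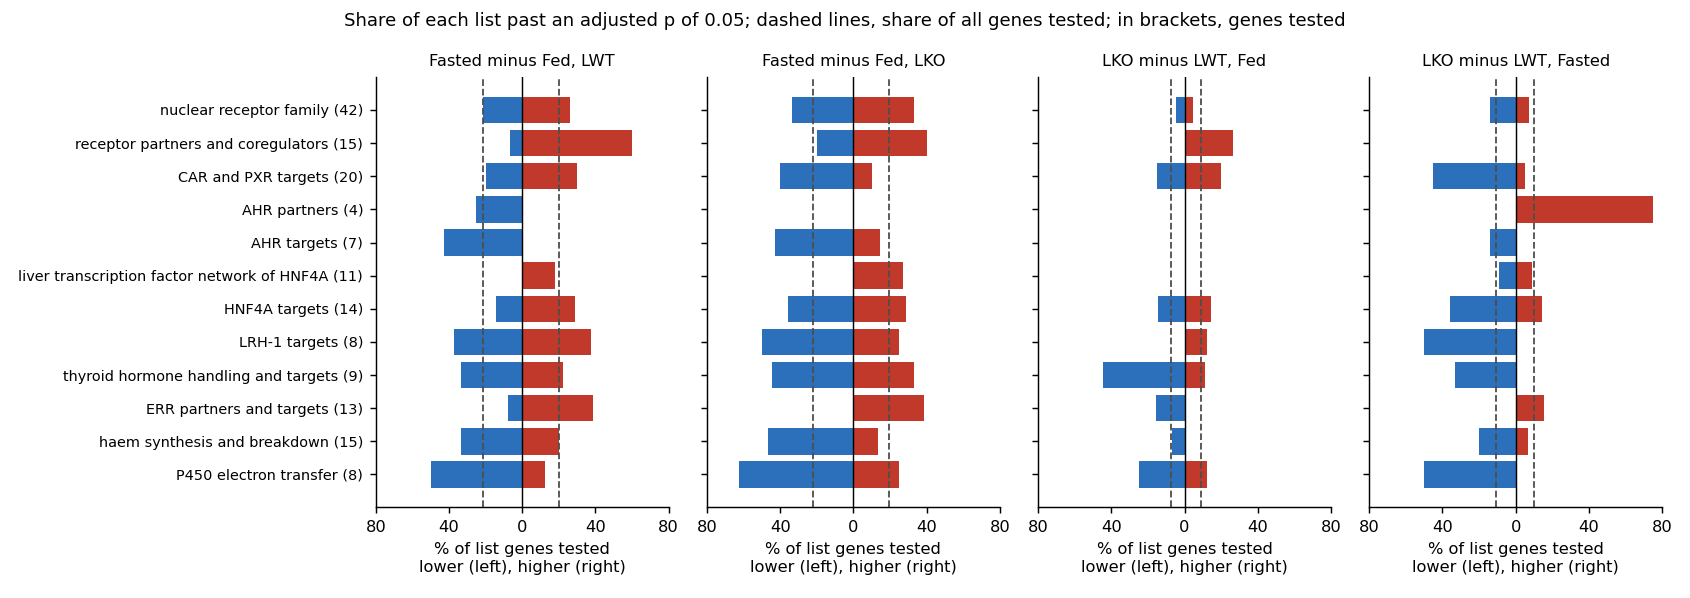
Percent of the tested genes of each list (x axis, lower to the left and higher to the right) past an adjusted p of 0.05 in 4 comparisons, with the number tested in brackets and the share of all genes tested as dashed lines. The bars of AHR targets include Cyp1a1 and Cyp1b1, which were tested only through the groups where they were high. Those of thyroid hormone genes include Hr, which missed the filter in LKO_Fed. CAR and PXR targets reach 9 of 20 lower in fasted LKO livers, where 10.6% of all genes are lower.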

How the data were processed

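Male mouse liver RNA, labelled with Cy3, was run by the authors on 1-colour Agilent mouse arrays, 24 in 4 groups of 6, and scans were read with Agilent Feature Extraction 10.10.1.1, per the labels. The deposited scanner values used here are the median spot intensity before background subtraction, with the mean, background and processed intensity for alternatives. The deposited series matrix holds log2 values that the authors filtered, corrected for washing bath and quantile normalized. The bath of an array is not among its labels, and slide stood in for it.

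Probes well above background on at least 5 of 6 arrays of a group were kept (32197). Their log2 median signals were quantile normalized, and groups and slide were fitted over all arrays with limma 3.58.1 (R 4.3.3; lmFit, arrayWeights, eBayes). P-values were two-sided and adjusted by Benjamini-Hochberg over all probes kept. The fit was tested on simulated data. Arrays give no counts, and their number limits the precision. The mice are separate animals by the labels. Members and gene lists were chosen with earlier results of these data known, and lists were counted, not tested.

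All members are named. From each list and comparison the 3 largest changes past an adjusted p of 0.05 and 1.5-fold are named, with the 3 genes most like each member and Pik3ca. Some genes that meet these rules are not reported here. Genes without a test (4 list genes not named on the array, and those below background) were left out. Alternatives were other background corrections, scalings and filters, no slide term, no weights, the authors' values, only the groups compared, a replicate block, other probes, and leaving out each array or replicates 1 and 2 of LKO_Fasted. Matplotlib 3.10.9 drew the figures.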

Additional observations from a re-analysis of the deposited data

Results flagged for a closer look

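Among the 40 sets of 6 arrays formed by the 10 genes and 4 groups, 4 held an array far from the others by Dixon's ratio (the gap to the nearest array over the whole range, above its 95% critical value), where chance gives about 1 in 20. The ratio was 0.635 for Esrra in LWT_Fasted replicate 4, at 12.98 with the next array at 12.85. It was 0.652 for Thrb in LWT_Fed replicate 5, at 9.6 below the next at 9.77, and 0.697 for Thrb in LKO_Fed replicate 5, at 10.13 above the next at 9.84. It was 0.649 for Nr2f6 in LWT_Fasted replicate 2, at 13.89 below the next at 14.18.

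The response of Por to fasting differed between genotypes. The log2 rise was 1.65 in LWT and 1.14 in LKO, and the interaction was -0.50 (SE 0.11, limma adjusted p = 0.0078).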

How the results depend on the processing

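The rises of Nr1i2, Nr1i3, Hnf4a, Por and Alas1 with fasting in both genotypes, and the fed genotype difference and interaction of Por, passed the threshold in every alternative run on the same probe. A fold above 1.5 asked as well cut the counts of genes past the threshold from 7 to 4 for fasting in LWT, from 9 to 4 in LKO and from 1 to 0 in both genotype comparisons and the interaction. For fasting in LWT, 9 genes passed with a filter on all arrays, with no slide term and with the authors' values, the added 2 being Nr5a2 and Thrb. For genotype in fed livers, leaving out 1 array gave 1 to 2 genes. For genotype in fasted livers, normexp background correction, a filter on all arrays, no slide term, the authors' values and the loss of LKO_Fasted replicates 1 and 2 each gave 2 genes, no filter on dim probes gave 0, and leaving out 1 array gave 0 to 2. For the interaction, 75th percentile scaling gave 2 genes and leaving out 1 array 1 to 2. The change of Nr2f6 in LKO reversed to 0.18 with its other probe. The cause of these moves was not tested.

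Replicate numbers are shared by the groups but do not pair the arrays. Correlations of same-numbered arrays over 36 pairs ran from -0.18 to 0.275 and 2 of 24 arrays were most like one of their own number. With the replicate block, 2 genes passed for genotype in fed livers, 2 in fasted livers and 2 for the interaction, adding Alas1 to both genotype comparisons and Hnf4a to the interaction. The 75th percentile scaling moved the median of all genes by -0.011 (log2).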
